A study of Homo sapiens with 8 samples.

Results

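The interferon and antiviral response genes described here are 29 genes, chosen by name, out of 20037 protein-coding genes on chromosomes 1 to 22, X and Y, and all 29 were found in the gene table. The list holds 4 ligands (IFNB1, IFNL1, IFNL2, IFNL3), 5 transcription factors (STAT2, IRF1, IRF3, IRF7, IRF9), 7 RNA sensors and RNA-activated enzymes (IFIH1, DDX60, EIF2AK2, OAS1, OAS2, OAS3, OASL), 11 antiviral effectors (IFIT1, IFIT2, IFIT3, MX1, MX2, RSAD2, ISG20, IFI6, IFI27, IFI44, IFI44L), and the ubiquitin-like modifier ISG15 with its protease USP18. NKRF, the NF-kB repressing factor, was immunoprecipitated from MDA-MB-231-P3, a subline of a triple-negative breast cancer line that the labels describe as highly metastatic, and the bound DNA was sequenced (ChIP-seq). All libraries came from this 1 subline with the same anti-NKRF antibody. One group carries the label control, which the design text gives as control siRNA, and in the other Uc003xsl.1, a long non-coding RNA, was targeted by transfected siRNA (si-Uc003xsl.1). The level of Uc003xsl.1 was not measured in the files analysed here. Each group had 2 NKRF libraries, and each library has its own list of peaks, regions where tags (aligned reads) of the NKRF library exceeded those of an input library. Nothing in the labels says that the replicates came from separate cultures, so p-values reflect only how far these libraries spread, and that spread may be technical.

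The lists differed in depth and in the way they were made. The 2 control lists held 7444 and 902 peaks from 19335431 and 8250475 filtered tags, and those of si-Uc003xsl.1 held 7577 and 4463 peaks from 18890698 and 11366267 tags. The list of control replicate 2 came from a different version of the peak caller, at a different threshold, and gives the pileup at the summit (the position of highest signal) in place of tags, so within the control group replicate and processing cannot be told apart. In control replicate 1, 68.1% of peaks sat at the smallest count of 6 tags and the caller put the false discovery rate of every peak at 100%. A gene was counted as having a peak when a summit lay in its body, or in a window reaching 10 kb (narrow) or 50 kb (wide) beyond either end. Distances below run from a gene's nearer end to the nearest summit, and lists are given in the order control replicates 1 and 2, then si-Uc003xsl.1 replicates 1 and 2.

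Cells that sense viral nucleic acid switch on the genes of interferon beta and the lambda interferons through IRF3, IRF7 and NF-kB. The secreted interferons activate JAK kinases, and a complex that holds STAT2 and IRF9 then binds a sequence called the interferon-stimulated response element (ISRE) in front of the antiviral genes. Gamma-activated sites (GAS), such as that of IRF1, are another kind of interferon-responsive sequence. NKRF is described as a repressor that binds a negative regulatory element beside NF-kB sites, and IFNB1 is one of the genes it is described to repress.

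The promoters of 4 members are shown because they are the places where the lists give the clearest contrast: IRF1, whose promoter is the one covered by a peak; IFNB1, the described NKRF target, which had none; IFNL3, whose gene body held a peak; and ISG15, an antiviral gene with a peak of each si-Uc003xsl.1 list over 10 kb before it. Each line gives the 250 bases before the gene's start, 5′ to 3′ along the gene, from RefSeq on GRCh38.p14: IRF1 at chr5:132490774-132491023 on the minus strand, IFNB1 at chr9:21077943-21078192 on the minus strand, IFNL3 at chr19:39245251-39245500 on the minus strand, and ISG15 at chr1:1013247-1013496 on the plus strand. Capitals mark matches on either strand to an ISRE core (GAAANNGAAA), a GAS (TTCNNNGAA) or the NF-kB consensus.
IRF1: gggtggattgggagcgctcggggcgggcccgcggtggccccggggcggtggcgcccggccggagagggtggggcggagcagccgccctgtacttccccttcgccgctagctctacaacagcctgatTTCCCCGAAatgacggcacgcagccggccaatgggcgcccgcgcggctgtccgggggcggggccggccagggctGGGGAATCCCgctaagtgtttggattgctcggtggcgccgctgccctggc
IFNB1: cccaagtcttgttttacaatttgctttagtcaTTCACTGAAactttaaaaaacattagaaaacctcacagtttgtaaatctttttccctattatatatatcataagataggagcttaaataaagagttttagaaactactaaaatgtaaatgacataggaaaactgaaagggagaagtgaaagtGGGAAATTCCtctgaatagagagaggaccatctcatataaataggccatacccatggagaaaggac
IFNL3: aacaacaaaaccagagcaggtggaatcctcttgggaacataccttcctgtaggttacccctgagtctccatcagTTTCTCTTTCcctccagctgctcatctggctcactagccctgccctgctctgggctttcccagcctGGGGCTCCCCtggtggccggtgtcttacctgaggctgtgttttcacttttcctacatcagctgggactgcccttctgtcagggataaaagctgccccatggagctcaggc
ISG15: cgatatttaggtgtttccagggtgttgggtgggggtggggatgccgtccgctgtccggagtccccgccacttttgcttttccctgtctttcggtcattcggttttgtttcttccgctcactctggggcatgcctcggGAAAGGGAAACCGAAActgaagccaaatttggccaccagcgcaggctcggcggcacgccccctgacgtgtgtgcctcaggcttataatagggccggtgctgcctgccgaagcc
In IRF1 the capitals are a GAS 124 to 116 bases before the start and an NF-kB match 50 to 41 bases before it. In IFNB1 they are a GAS match 218 to 210 bases before the start and an NF-kB match 66 to 57 bases before it. IFNL3 has an ISRE core on the other strand 176 to 167 bases before the start and an NF-kB match 110 to 101 bases before it, and ISG15 has overlapping ISRE cores from 113 to 98 bases before it.

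IRF1 had the 2 NKRF peaks with the most tags and the greatest length among all peaks within 50 kb of a member, and they were in si-Uc003xsl.1 replicate 1 alone. IRF1 encodes a transcription factor that interferon and NF-kB induce. A peak at 132490743 to 132491242 on chromosome 5 was 500 bp long with 35 tags, its summit lay 316 bp before the IRF1 start, and it covered all 250 printed bases of the promoter, GAS and NF-kB matches included. A second peak, at 132496115 to 132497209, was 1095 bp long with 72 tags and lay 5.61 kb before the start. Their -log10 p of 7.11 and 6.66 stood at percentiles 97.4 and 96.2 of that list, whose median peak had 7 tags and 176 bp. A peak 15.2 kb from IRF7 in si-Uc003xsl.1 replicate 2 had a higher -log10 p (7.38, percentile 98.0 of its list) with 6 tags. The authors' fold enrichment was 25.29 there against 4.57 and 4.36 at IRF1. Both IRF1 values lay below 10.2, the median fold enrichment of the si-Uc003xsl.1 replicate 1 list. The caller's false discovery rate was 31.52% at the IRF7 peak, in a list with a median of 10.96%. At these IRF1 peaks it was 26.63% and 27.93%, in a list with a median of 30.75%. A further peak of the same list, 29.4 kb away, had 6 tags. The nearest summit to IRF1 lay 56.9 and 97.1 kb away in the control lists and 229.2 kb away in the second si-Uc003xsl.1 list. Neither control list nor the second si-Uc003xsl.1 list thus had a summit within 50 kb of IRF1. Of all members, IRF1 alone kept its peaks within 10 kb in si-Uc003xsl.1 replicate 1 when peaks were held to a -log10 p of at least 6. That is 1 of 29 members (3.45%), near the 2.69% of protein-coding genes in that list at the same threshold.

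**Figure D1:**
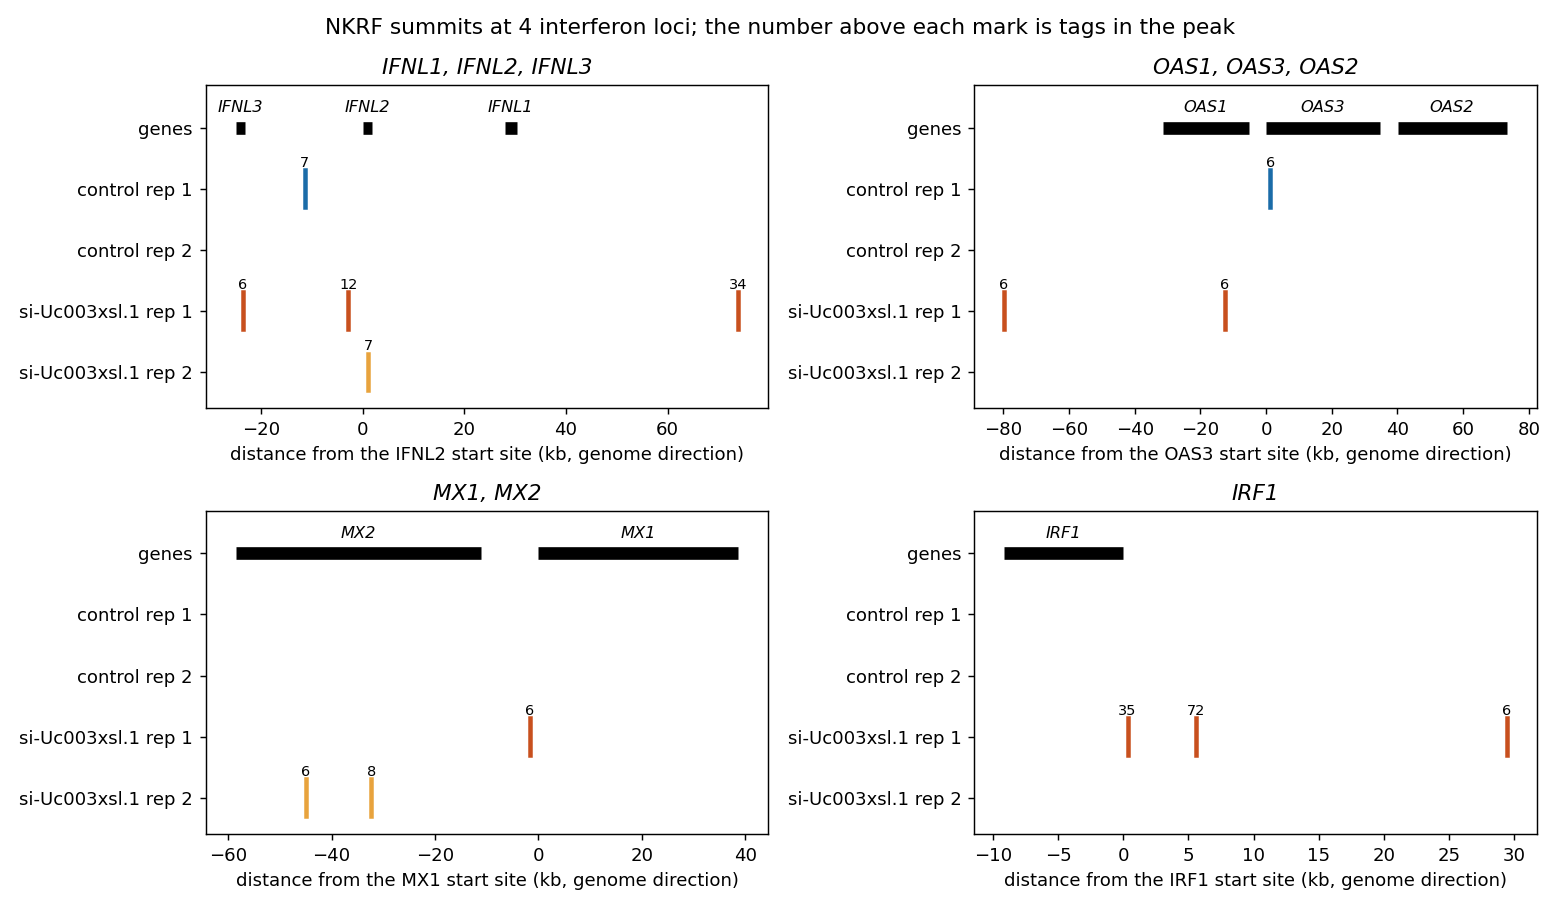
NKRF summits (vertical marks, tags in the peak above each) in the 4 peak lists at 4 loci, plotted by distance in kb from the start site named under each panel, in genome direction; black bars are the genes. IRF1 is read toward lower positions, so its peaks with 35 and 72 tags lie before its start, and no list repeats the position of another at any of the 4 loci.

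Other transcription factors of the pathway had no summit within 10 kb in any list. IRF7, the factor that amplifies interferon production, had its nearest summits at 1125.3, 6730.6, 196.1 and 15.2 kb. The last of these, at 597259 to 597371 on chromosome 11, lay inside the gene PHRF1, with 6 tags over 113 bp and a -log10 p of 7.38. For IRF9, the DNA-binding partner of STAT2, the distances were 1187.8, 3055.8, 80.0 and 18.9 kb, and the nearest summit, with 7 tags, was 778 bp from EMC9. STAT2, the transactivating subunit of the same complex, had distances of 329.4, 6826.9, 117.3 and 83.5 kb. IRF3, which is activated directly by RNA and DNA sensing, had 1430.5, 1446.9, 79.5 and 66.1 kb.

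IFNB1, the gene of interferon beta on chromosome 9, had no NKRF peak in its neighbourhood in any list. The nearest summits lay 524.2 and 10334.7 kb away in the control lists and 1653.4 and 392.7 kb away in the si-Uc003xsl.1 lists. Weaker signal, under the threshold of the caller, would not appear in such lists, so binding at IFNB1 was not detectable here rather than shown to be absent.

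The lambda interferon genes on chromosome 19, which encode ligands that act mainly on epithelial cells, had peaks nearby in 3 of the 4 lists, each at a different position. In si-Uc003xsl.1 replicate 1 a peak at 39244870 to 39244969 lay inside IFNL3, 331 bp after its start, with 6 tags over 100 bp. A second peak of that list, at 39265523 to 39265826, lay 2.82 kb before IFNL2 with 12 tags over 304 bp. In si-Uc003xsl.1 replicate 2 a peak at 39269499 to 39269697 lay inside IFNL2, 1.16 kb after its start, with 7 tags over 199 bp. In control replicate 1 a peak at 39256959 to 39257077 lay between both genes, 11.4 kb from IFNL2 and 11.8 kb from IFNL3, with 7 tags over 119 bp. The summits nearest to each other in different lists were 3.98 kb apart, and in control replicate 2 the nearest summit to any of the 3 genes was 1442.1 kb away. IFNL1 had no summit within 10 kb, and its nearest were at 39.4, 1495.0, 30.8 and 26.8 kb in the 4 lists. A further peak of si-Uc003xsl.1 replicate 1 within 50 kb of IFNL1 had 34 tags and lay 152 bp from SAMD4B. IFNL2 and IFNL3 are near-identical copies: over the 300 bases from 250 before to 50 after the start their sequences agree at 299 bases, with an identical run of 269, against 80 and 81 of 300 for IFNL1 with IFNL2 and IFNL3 without gaps. How reads that match both copies were placed is not given in the sources used here, so the assignment of a peak to IFNL2 or IFNL3 is uncertain.

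Among the RNA sensors and RNA-activated enzymes, the OAS cluster on chromosome 12 was the one with peaks in or near genes. The OAS genes encode enzymes that make 2-5-linked oligoadenylate in response to double-stranded RNA and thereby activate RNase L. In control replicate 1 a peak at 112939709 to 112939792 lay inside OAS3, 1.28 kb after its start and 6.53 kb from OAS1, with 6 tags over 84 bp. In si-Uc003xsl.1 replicate 1 a peak at 112925911 to 112926055 lay inside OAS1, 19.0 kb after its start and 12.5 kb from OAS3, with 6 tags over 145 bp. These summits were 13.8 kb apart, and both peaks had the smallest tag count of their lists. Replicate 2 of either group had its nearest summit far away, 935.1 kb (control) and 212.6 kb (si-Uc003xsl.1) from OAS3. OAS2, whose gene follows OAS3, had the OAS3 peak of control replicate 1 at 38.8 kb and its nearest in the other lists at 896.6, 52.6 and 174.1 kb. The OAS-like gene OASL, elsewhere on the chromosome, had distances of 306.4, 3067.3, 295.8 and 114.1 kb.

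The remaining sensors had no summit within 10 kb. IFIH1 encodes MDA5, the sensor of long double-stranded RNA, and its nearest summits were at 51.3, 1353.2, 96.1 and 85.5 kb. EIF2AK2, the gene of the translation-blocking kinase PKR, had 197.4, 363.5, 92.7 and 57.4 kb. DDX60, an interferon-induced helicase gene, had 26.4, 606.2, 551.8 and 754.3 kb. The first of these, from control replicate 1, had 6 tags over 140 bp and lay closer to ANXA10, at 2181 bp. IFIH1 at 51.3 kb was just outside the wide window, as OAS1 with a further peak at 48.2 kb in si-Uc003xsl.1 replicate 1 was just inside it. At the narrow window MX2 at 9.47 kb lay just inside and IFNL2 at 11.4 kb in control replicate 1 just outside.

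MX1 and MX2, neighbouring genes of dynamin-like GTPases that block viruses, had peaks nearby in both si-Uc003xsl.1 lists and in neither control list. In replicate 1 a single peak at 41418771 to 41418920 on chromosome 21 lay between them, 1.69 kb before the MX1 start and 9.47 kb from MX2, with 6 tags over 150 bp. In replicate 2 peaks at 41375463 to 41375647 and 41388149 to 41388403 lay inside MX2, with 6 and 8 tags over 185 and 255 bp. The nearest of them was 30.6 kb from that of replicate 1, so these lists share the locus and not the site. The nearest control summits lay 1261.6 and 2642.0 kb from MX1 and 1311.4 and 2583.5 kb from MX2.

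RSAD2, the gene of viperin, which makes a chain-terminating nucleotide, had a peak in control replicate 1 at 6894261 to 6894385 on chromosome 2. It lay inside the gene, 28.4 kb after its start, with 7 tags over 125 bp and a -log10 p at percentile 96.1 of its list. The nearest summits in the other 3 lists were at 1282.4, 64.7 and 419.5 kb. The IFIT genes on chromosome 10 encode proteins that bind viral RNA ends. IFIT1 had a peak of si-Uc003xsl.1 replicate 2 in its gene body at 89403081 to 89403279, with 6 tags over 199 bp, 10.6 kb after its start and also inside the annotated span of LIPA. IFIT2 and IFIT3 had a peak of control replicate 1 at 19.0 and 44.9 kb, with 8 tags over 131 bp and inside LIPA. A peak of control replicate 1 at 37.7 kb from IFIT1 had 6 tags and lay in SLC16A12. Outside these, the nearest summits to the IFIT genes were between 62.2 and 446.3 kb away. IFI44 and IFI44L, neighbours on chromosome 1 of less defined antiviral function, shared a peak of control replicate 1 at 78683525 to 78683637, with 6 tags over 113 bp, at 19.5 and 37.4 kb.

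ISG15 and ISG20 had no summit within 10 kb in any list, but 1 within 50 kb in each si-Uc003xsl.1 list. ISG15 encodes a ubiquitin-like protein that is joined to other proteins during infection. Its peaks lay 11.6 kb before the start at 1001801 to 1002099 (17 tags over 299 bp, replicate 1) and 13.6 kb before it at 999637 to 999996 (19 tags over 360 bp, replicate 2). The gap between these peaks was 1804 bp, and both were closer to HES4, the first 1850 bp outside it and the second inside it. ISG20 encodes an RNA exonuclease, and its peaks at 34.5 and 14.2 kb had 7 and 12 tags and were closer to AEN, the second inside it. The nearest control summits lay 2816.5 and 6716.7 kb from ISG15 and 1321.5 and 7388.1 kb from ISG20. IFI6 and IFI27, which encode small membrane proteins, and USP18, the gene of the protease that removes ISG15, had no summit within 50 kb in any list. Their nearest were at 62.6, 320.0 and 131.1 kb.

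**Figure D2:**
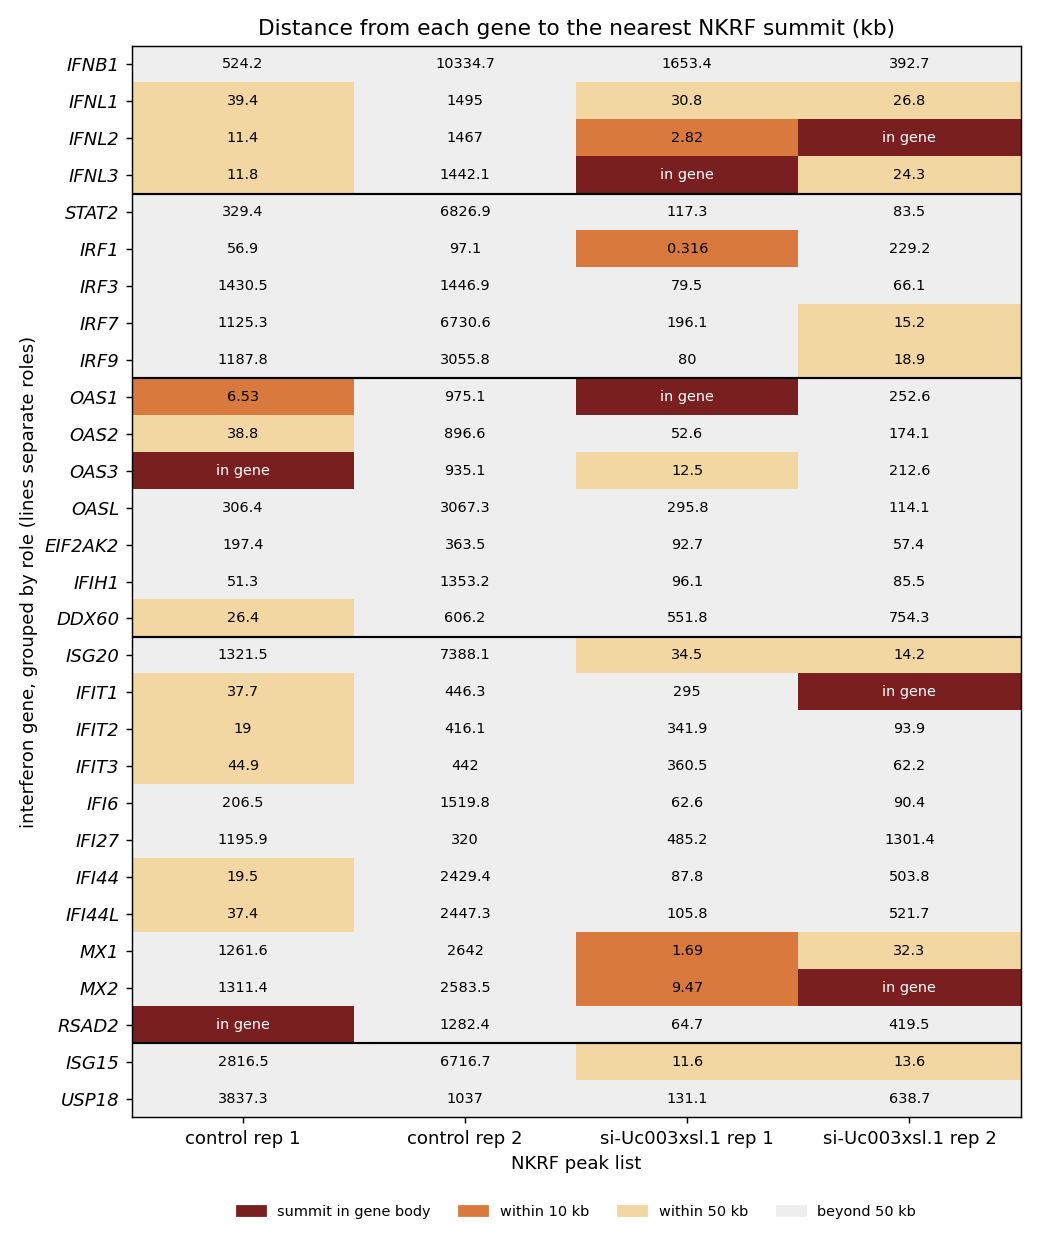
Distance in kb from each of the 29 genes (rows, grouped by role) to the nearest NKRF summit in each of the 4 peak lists (columns), colored by window; "in gene" marks a summit in the gene body. Control replicate 2 has no cell within 50 kb, and the cells within 10 kb are spread over IFNL, OAS, MX, IFIT1, RSAD2 and IRF1.

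Counted over the list, members carried summits within 10 kb at shares below those of all protein-coding genes in each of the 4 lists, and the intervals of the 3 lists with any member held the share of all genes. In the gene body or within 10 kb of an end, control replicate 1 had 3 of 29 members (10.3%, exact Clopper-Pearson 95% interval 2.19 to 27.4) against 11.8% of protein-coding genes. Control replicate 2 had 0 of 29 against 2.58%. Si-Uc003xsl.1 replicate 1 had 6 of 29 (20.7%, interval 7.99 to 39.7) against 23.0%, and replicate 2 had 3 of 29 (10.3%, interval 2.19 to 27.4) against 17.1%. The intervals cover counting error only and treat members as independent, although neighbours can share a peak. In the gene body alone the counts were 2, 0, 2 and 3 in the same order of lists, against 9.71%, 2.08%, 15.7% and 11.5% of protein-coding genes, and the members are shorter, with a median gene length of 14.3 kb against 24.1 kb. No member had a summit in its body in both si-Uc003xsl.1 lists (0 of 29, against 3.82% of protein-coding genes, and 2.33% for both of these lists and neither control). In 22 of 29 no list had a summit in the body (75.9% against 71.1%), and in 7 at least 1 did (24.1% against 28.9%). In all, 9 of 29 members had a summit within 10 kb in at least 1 list, against 40.7% of protein-coding genes, and 20 of 29 had none, against 59.3%.

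With 50 kb windows control replicate 1 stood above its background, with 13 of 29 members (44.8%, interval 26.4 to 64.3) against 19.9%. These 13 members came from 7 peaks, since neighbours such as the OAS, IFIT and lambda interferon genes share them, and 3 of the 7 were closer to a gene outside the list. The interval treats the 29 members as independent, so with shared peaks it is too narrow. The peaks had 6 to 8 tags, 4 of them the smallest count, and a false discovery rate of 100%. Without peaks at the smallest count 6 of 29 members remained in that list, against 9.31% of protein-coding genes. Control replicate 2 had 0 of 29 against 4.84%, and si-Uc003xsl.1 replicates 1 and 2 each had 10 of 29 (34.5%, interval 17.9 to 54.3) against 42.1% and 31.3%. In any list it was 20 of 29 members (69.0% against 65.2%), and in none 9 of 29 (31.0% against 34.8%). The median distance from a member to the nearest summit was 56.9, 1446.9, 80.0 and 85.5 kb in the 4 lists, against 280.5, 1318.1, 73.4 and 132.1 kb for protein-coding genes.

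**Figure D3:**
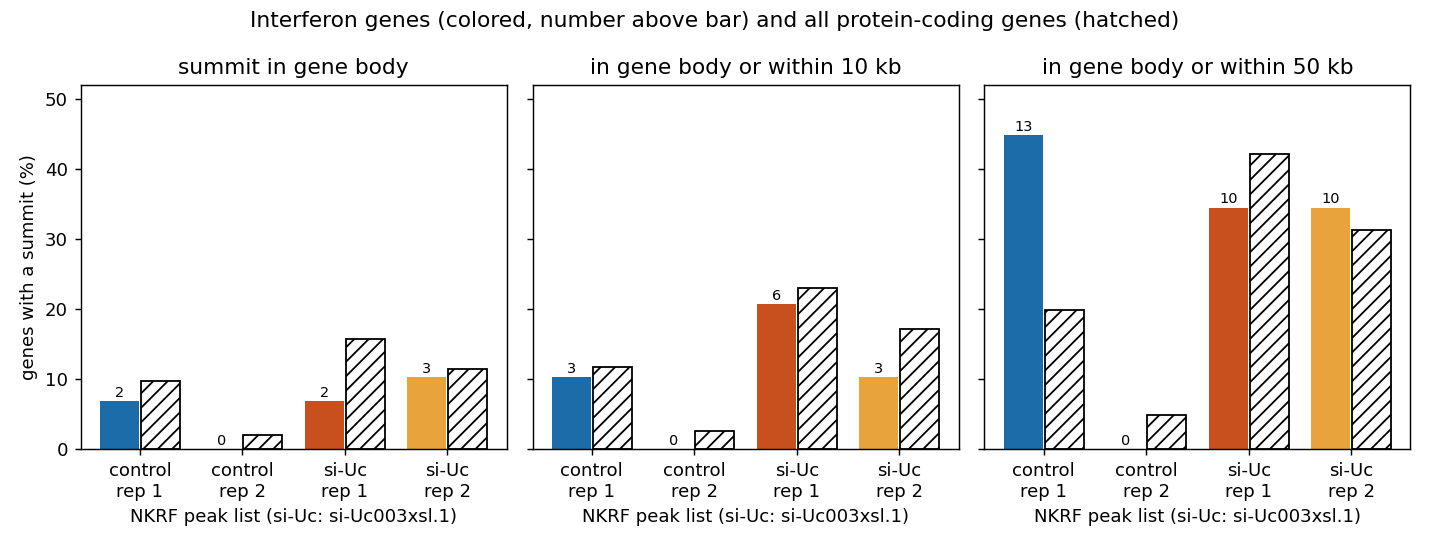
Percent of the 29 interferon genes (colored bars, number of genes above each) and of all protein-coding genes (hatched bars) with an NKRF summit in the gene body, in it or within 10 kb, and in it or within 50 kb, for each of the 4 peak lists. Within 10 kb no colored bar exceeds its hatched one, and within 50 kb that of control replicate 1 does, at 44.8% against 19.9%.

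The comparison of si-Uc003xsl.1 with control asks whether NKRF was found at other or more genes once the RNA that the series title describes as its decoy was targeted. Counting neighbours that share a peak once, the loci with a summit within 10 kb were 2 and 0 in controls, with a mean of 1.0 ± 1.41 (SD, n = 2). They were 5 and 3 after si-Uc003xsl.1, with a mean of 4.0 ± 1.41 (SD, n = 2). The groups did not overlap, and the difference of 3 loci gave a two-sided exact permutation p of 0.333, the smallest possible with 2 libraries a group, and 0.05 is out of reach. The share of all protein-coding genes was also higher in both si-Uc003xsl.1 lists (23.0% and 17.1% against 11.8% and 2.58%). With all lists reduced to 902 peaks, the length of the shortest, the difference was 0. At that setting only 1, 0, 1 and 0 members were left in the 4 lists. The shares of all protein-coding genes were 1.99% and 2.58% in controls and 4.36% and 4.03% after si-Uc003xsl.1. The difference in loci was 1.5 with peaks above the smallest tag count and 0.5 with a -log10 p of at least 6. In the gene body it was 1.5 loci (exact permutation p = 0.667), from 2 and 0 in controls to 2 and 3. It was 2.5 without control replicate 1, 0.5 without control replicate 2 and 0.5 with peaks above the smallest tag count. Within 50 kb it was 3 loci (exact permutation p = 1.0), from 7 and 0 to 6 and 7, and it was 6.5 without control replicate 1 and -0.5 without control replicate 2. With lists of equal length it was 0.5, and with a -log10 p of at least 6 it was 1.

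No position recurred between lists at these genes. The 26 distinct peaks within 50 kb of a member, from 3 lists, included 0 pairs from different lists that overlapped by at least 1 bp. The overlap among all peaks of the lists was not counted, so this 0 cannot be called particular to these genes. Within 10 kb, IFNL2 and MX2 had a summit in both si-Uc003xsl.1 lists and in no control list (2 of 29, 6.90%, against 4.33% of protein-coding genes, and 6.19% without regard to the controls), at different positions. Within 50 kb ISG15, ISG20, MX1 and MX2 did (4 of 29, 13.8%, against 13.0%), and with IFNL1, IFNL2 and IFNL3, which also had a peak of control replicate 1, 7 of 29 had one in both si-Uc003xsl.1 lists (24.1% against 17.1%).

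Most peaks near members were small. Within 10 kb the 6 peaks of si-Uc003xsl.1 replicate 1 had a median of 9 tags, ranging from 6 to 72, and the 4 of replicate 2 had a median of 6.5, ranging from 6 to 8, where the medians of the whole lists were 7 and 8. The 2 of control replicate 1 had 6 and 7 tags. Of these 12 peaks the pair at IRF1 were the ones with more than 12 tags. False discovery rates within 50 kb ranged from 26.63% to 31.03% in si-Uc003xsl.1 replicate 1 and from 10.45% to 31.52% in replicate 2. Under a -log10 p of at least 6, IRF1 was the member left within 10 kb in any list, and IRF1 and IRF7 were those left within 50 kb. Within 10 kb that was 3.45% of members in si-Uc003xsl.1 replicate 1, near the 2.69% of protein-coding genes. Within 50 kb it was 3.45% in replicate 1 (IRF1), against 5.57% of protein-coding genes. In replicate 2 (IRF7) it was also 3.45%, again below the share of protein-coding genes.

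**Figure D4:**
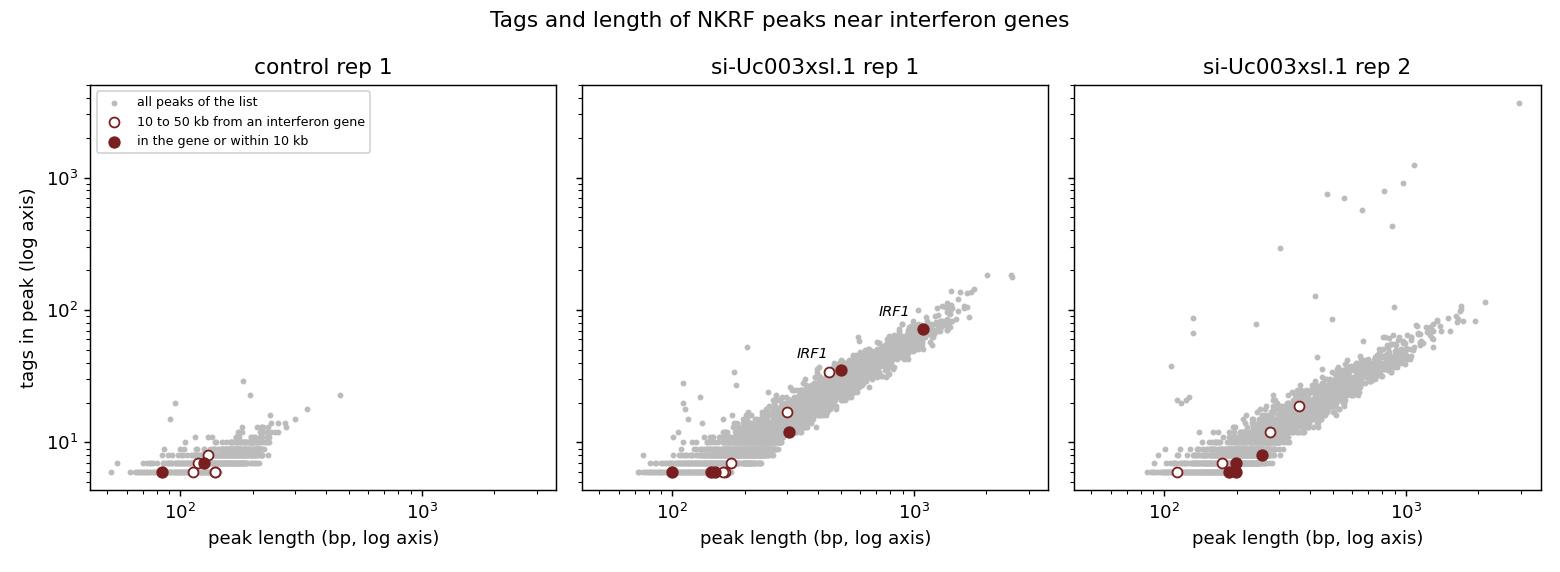
Tags against length (both log axes) of all peaks (grey) in the 3 lists that give tags, with peaks in or within 10 kb of an interferon gene (filled) and 10 to 50 kb from one (open). The IRF1 peaks, with 35 and 72 tags, lie among the long peaks of si-Uc003xsl.1 replicate 1, while most others sit at 6 to 8 tags.

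A peak overlapped 1 of 22 member promoters, that of IRF1, in si-Uc003xsl.1 replicate 1, near that list's share of 4.17% of protein-coding promoters. Of the 29 members, 22 had an entry in the RefSeq promoter table, which spans 250 bases before to 50 after the start. An ISRE core was present in 16 of these 22 (72.7%) against 3.65% of 27305 promoters, a GAS in 6 (27.3%) against 7.88%, and an NF-kB match in 7 (31.8%) against 10.8%. These shares describe a list that is made of interferon-induced genes. None of the 16 promoters with an ISRE core was overlapped by a peak in any of the 4 lists. Peaks overlapped 4.17% or less of protein-coding promoters in each list, so 16 promoters are too few for a comparison. The IRF1 promoter, with a GAS and an NF-kB match and no ISRE core, was the 1 of 22 that was overlapped, over 281 of its 300 bases in si-Uc003xsl.1 replicate 1, where 4.17% of protein-coding promoters were overlapped by a peak. In the other 3 lists it was 0 of 22, against 0.0505%, 0.00631% and 2.90%. A summit within 1 kb of the start was found for IRF1 and IFNL3 in si-Uc003xsl.1 replicate 1 (2 of 22, against 6.06%) and for 0 of 22 in the other lists (against 0.170%, 0.0947% and 4.82%). The matches are letters in these windows and show no binding.

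Of 43 other genes of the interferon system, 15 had a summit in the gene or within 10 kb in at least 1 list (34.9% against 40.7% of protein-coding genes). By list it was 3 (6.98% against 11.8% of protein-coding genes), 2 (4.65% against 2.58%), 7 (16.3% against 23.0%) and 8 (18.6% against 17.1%). Their loci averaged 2.5 ± 0.707 (SD, n = 2) in the control lists and 6.5 ± 0.707 (SD, n = 2) in the si-Uc003xsl.1 lists, a difference of 4 (two-sided exact permutation p = 0.333, the smallest possible), which was 0.5 with lists of equal length and also with a -log10 p of at least 6. TBK1, the kinase that activates IRF3, had a peak of si-Uc003xsl.1 replicate 1 at 64451998 to 64452578 on chromosome 12, 398 bp after its start. This peak had 30 tags over 581 bp, a -log10 p of 10.83, at percentile 99.9 of the list, and a false discovery rate of 18.18%. The nearest summits to TBK1 lay 1164.3 and 2545.1 kb away in the control lists and 783.8 kb away in si-Uc003xsl.1 replicate 2. IRF2, the gene of an IRF1 antagonist, was the 1 of 43 with a summit within 10 kb in both si-Uc003xsl.1 lists (2.33% against 6.19%). Its peaks at 184472941 to 184473411 (27 tags) and 184473545 to 184473888 (14 tags) on chromosome 4 were separated by 133 bp, and a peak of control replicate 1 with 7 tags lay in the same gene, its summit 24.7 kb from the nearer of theirs.

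STING1, the adaptor of cytosolic DNA sensing, had peaks of 14 tags each at 2.79 and 6.95 kb in si-Uc003xsl.1 replicate 1, both closer to SMIM33. JAK1, a receptor-bound kinase gene, contained 3 peaks of si-Uc003xsl.1 replicate 2 with 6, 16 and 6 tags and 1 of control replicate 2 with a pileup of 7. IFITM1, IFITM2 and IFITM3, which encode membrane proteins that block viral entry, shared 1 peak of si-Uc003xsl.1 replicate 2 with 14 tags, 1.25 kb from IFITM1. RIGI, the gene of an RNA sensor, contained a peak of control replicate 1 with 8 tags. TRIM5, a restriction factor gene, and PML, the gene that organises nuclear bodies, contained peaks of si-Uc003xsl.1 replicate 1 with 7 and 8 tags, and SAMHD1, the gene of a nucleotide-degrading enzyme, had 1 of replicate 2 at 8.26 kb with 12 tags, inside TLDC2. Another 3 genes, TRIM25, MAVS and DHX58, ranked lower and were named after their values were seen. The peak at TRIM25, which encodes a ligase that activates RIG-I signalling, had 15 tags with its summit at the gene's start in si-Uc003xsl.1 replicate 2. The peak in MAVS, the gene of the adaptor of RNA sensing, had 16 tags in replicate 1, and that near DHX58, the gene of the RNA helicase LGP2, had 9 tags at 2.38 kb in replicate 2. The receptor genes IFNAR1, IFNAR2, IFNLR1, IL10RB, IFNGR1 and IFNGR2 had no summit within 50 kb in any list. They were among 17 of the 43 genes without one (39.5% against 34.8% of protein-coding genes).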

How the data were processed

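NKRF ChIP-seq peak lists of 4 libraries were used (2 control, 2 si-Uc003xsl.1); the 4 input libraries were not analysed here. Reads were aligned to GRCh38.p11, with Bowtie2 and CASAVA 1.4 named, per the submitters' processing notes. Per the file headers, each library had its own peak calls against 1 input: with MACS 1.4.2, a p-value cutoff of 1e-04 and 50-bp tags in 3 lists, and with MACS 2.1.1.20160309 with a q-value cutoff of 0.05 and 105-bp tags in control replicate 2. The tag counts per peak were deposited without normalization, as was the pileup signal of control replicate 2. The score of -10 times log10 p was divided to -log10 p, the deposited unit of control replicate 2 for p- and q-values. The fold enrichment is the authors' ratio over input, per the file headers, and the false discovery rate is the caller's percent, per the file headers; neither was rescaled.

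Positions are the authors', 1-based. Genes came from a RefSeq table on GRCh38.p14, and served only to find a peak's neighbours; start sites came from the RefSeq promoter table. A member had a peak when the summit lay in the gene body or within 10 or 50 kb of either end. Members sharing a peak were joined into 1 locus. Backgrounds are shares of all 20037 protein-coding genes. The test of a group difference was an exact permutation test, two-sided, over every division of the 4 libraries into 2 and 2. The replicate numbers name libraries. The correlation of same-numbered deviations was 0.0407, a single value, since with 2 libraries a group it is the same for both replicate numbers by construction. Members and lists were chosen with earlier results of these data known. Named genes followed a written rule: every member, and up to 12 other pathway genes ordered by the percentile of -log10 p. The values of 1 gene that the rule names are not reported here. Counting was checked on simulated peaks. Python 3.11.15, pandas 2.3.3, numpy 2.4.6 and scipy 1.17.1 were used.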

Additional observations from a re-analysis of the deposited data

How the results depend on the processing

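Differences between si-Uc003xsl.1 and control in loci with a summit were recomputed with other settings. With lists of equal length the differences were -0.5 in gene bodies, 0 within 10 kb, 0.5 within 50 kb and 0.5 for the other pathway genes. With a -log10 p of at least 6 they were 0, 0.5, 1 and 0.5. Fewer peaks enter these lists (902 each, or 229 to 774), so few members can be counted. Leaving out 1 library in turn gave 0.5 to 2.5 in gene bodies, 2 to 4 within 10 kb, -0.5 to 6.5 within 50 kb and 3.5 to 4.5 for the other pathway genes within 10 kb. The 6.5 came without control replicate 1 and the -0.5 without control replicate 2. These leave-one-out values have no test. With peaks above the smallest tag count the 4 differences, in the same order, were 0.5, 1.5, 3 and 4.5, against 1.5, 3, 3 and 4 with all peaks. With whole peak intervals they were 2, 3, 3 and 4, and with every gene counted separately 1.5, 3, 3.5 and 5. With the replicate block the differences were 1.5, 3, 3 and 4 (exact sign-flip p = 1.0, 0.5, 1.0 and 0.5, where 0.5 is the smallest possible); the labels do not say that same-numbered libraries are paired. No setting brought a p to 0.05, which this design cannot reach. Peak lists hide signal below the caller's threshold, and the 8250475 tags of control replicate 2 limit what its list can show.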
